A study of Rattus norvegicus with 6 samples.

Results

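Broad tiled regions are stretches of the rat genome that a promoter-type tiling array covers with many closely spaced probes, here 21 to 100 of them. They were found from probe coordinates on the build rn4 alone, by joining probes with gaps of at most 1000 bp and keeping joined stretches on chromosomes 1 to 20, whatever their signal. This gave 122 of the 16123 regions on the array, with 5388 of its 172669 probes. DNA methylation was read by methylated DNA immunoprecipitation on arrays (MeDIP-chip) in cardiac muscle of Sprague-Dawley rats labelled as day 1 of age, although the extraction label speaks of fetal hearts. The 3 control arrays held offspring of dams that received saline during pregnancy. The 3 PM2.5 arrays held offspring of dams that were given PM2.5, fine airborne particles, in suspension. All dams were anaesthetised with ether and took 30 µL into the trachea through a catheter. Neither the particle dose behind each array nor the pups' litter and sex could be read from the labels, so p-values here reflect no more than how much these arrays differed, and the labels call the arrays biological replicates. The DNA comes from whole heart tissue, so a different mix of cells and a different methylation level per cell cannot be told apart, and DNA arrays hold no expression markers by which the tissue could be checked. The series asks how maternal exposure to PM2.5 relates to methylation in the heart of the offspring.

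In MeDIP an antibody against 5-methylcytosine pulls down sheared DNA, and the captured DNA (Cy5) is hybridised together with the unselected input DNA (Cy3) of the same sample. The capture depends both on how many CpG sites a fragment carries and on how many of them are methylated. CpG-dense promoters are mostly unmethylated in mammalian tissues, whereas the sequence between genes and within gene bodies is mostly methylated but poor in CpG, so both kinds of sequence can give a low ratio. Probe length on such arrays is varied to even out melting temperature, and longer probes usually lie in sequence richer in A and T. All values below are log2 ratios of Cy5 over Cy3, centred on the median of each array, and a region's value is the mean over its used probes. A probe was used where its input signal was well above background on all 6 arrays and its spot was marked as uneven or outlying on none.

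The 122 regions differed widely in size and place. They spanned 3255 to 22198 bp with a median of 7770 bp, and held a median of 36.5 probes. Chromosome 1 held 25 of them, chromosome 10 held 19 and chromosome 7 held 13, while chromosomes 6, 13, 16 and 20 held 1 each and the remaining autosome, chromosome 12, held none. There were 44 regions of 21 to 30 probes, 49 of 31 to 60 and 29 of 61 to 100. A median of 17 probes per region was used, with 4 to 49, and 120 of the 122 had at least 5. The region with most probes, 98, lay on chromosome 4 from 55872333 to 55892109. The widest covered 22198 bp on chromosome 10 from 68568675 to 68590872, and the narrowest 3255 bp on the same chromosome from 5124132 to 5127386. Around the lower limit of the size rule, the 23 autosomal regions with 20 probes had a median control ratio of -0.58 and the 21 with exactly 21 probes one of -0.43. Around the upper limit, the 2 regions of 98 probes had a median control ratio of -0.65, and the next larger region, just past the limit, had -1.51.

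Most broad regions were pieces of longer tiled loci. When gaps of up to 5000 bp were allowed, a grouping chosen after the coordinates had been seen, 86 of the 122 joined with other regions and 36 stood alone. Of all stretches formed in this way on the array, 21 came within 100 bp of a length of 50000 bp, and 18 of the broad regions lay in these. There were 67 broad regions in 36 stretches over 40 kb, 27 in stretches of 5 to 40 kb and 28 in stretches under 5 kb. The last kind was small, with a median of 21 probes, against 48 probes for pieces of stretches over 40 kb. The limits of many broad regions are therefore set by gaps in the tiling. With a joining gap of 2000 bp, 56 of the 122 kept their extent.

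In control hearts the regions had mostly low ratios. The mean over the 3 control arrays was below 0 in 112 of the 122 regions and below -1 in 34, and it ranged from -2.04 to 0.55. The median over regions was -0.62, -0.74 and -0.78 on controls 1, 2 and 3. Controls 2 and 3 lay close together and control 1 somewhat higher. The median over the 13711 tested autosomal regions of 6 to 20 probes, the usual size on this array, was -0.48 ± 0.056 in controls (mean ± SD, n = 3), against -0.71 ± 0.081 for the broad regions. The upper quartile of those smaller regions averaged -0.009 over the control arrays, so most of them lay below 0 too. No share over all regions is given for the counts below 0 and -1. Arrays were centred on more probes than those used, so 0 need not be the median of the used probes. Broad regions were built of longer probes, with a median mean length of 49.96 nt against 48.33 nt, and the ratio falls with probe length, so these levels were also set side by side at equal length. For probes of 45 nt the mean ratio in controls was -0.06 ± 0.027 in broad regions and 0.10 ± 0.0331 in all other autosomal regions, and it was lower in broad regions on all 6 arrays. For probes of 60 nt the order was the opposite, with -1.88 ± 0.129 in broad regions and -1.95 ± 0.135 elsewhere, and broad regions were the higher on each of the 6 arrays. The gap between long and short probes was thus smaller inside broad regions. Across the 122 regions, the mean probe length and the control ratio correlated at -0.66 (Pearson) and -0.68 (Spearman), a description over regions that share the same arrays.

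The 5 regions of lowest control ratio were spread over 4 chromosomes. The lowest, on chromosome 10 from 68605817 to 68613798, read -2.15, -2.03 and -1.96 on control arrays against -1.46, -1.90 and -2.05 on PM2.5 arrays, so the groups overlapped. The others lay on chromosome 5 from 53471988 to 53478710 (-1.67 ± 0.105), chromosome 7 from 105828907 to 105836707 (-1.66 ± 0.123), and chromosome 1 from 116066933 to 116079467 (-1.57 ± 0.186) and from 116081589 to 116096510 (-1.56 ± 0.105; SD, n = 3 control arrays for each). The highest ratio was found on chromosome 10 from 62496873 to 62501214, with control arrays at 0.51, 0.60 and 0.54 and PM2.5 arrays at 0.58, 0.53 and 0.29. It was followed by regions on chromosome 10 from 84990461 to 84995894 (0.21 ± 0.045), chromosome 1 from 201407974 to 201411659 (0.16 ± 0.0243), chromosome 9 from 74258640 to 74264437 (0.13 ± 0.0352) and chromosome 10 from 57533875 to 57537419 (0.08 ± 0.0703). In controls the last 4 of these lay between 0.08 and 0.21, and PM2.5 overlapped control in all 5 regions of highest ratio. Neighbouring broad regions were alike in some places and far apart in others. Joined at gaps of up to 50000 bp, 24 clusters held at least 2 broad regions, and their highest and lowest control ratios differed by 0.01 to 1.36 within a cluster, with a median of 0.53. The 3 regions on chromosome 1 between 56437030 and 56482887 lay between -1.46 and -1.37, whereas the 5 on chromosome 7 between 105815931 and 105865328 ran from -1.66 to -0.48, and the pair on chromosome 10 between 62464547 and 62501214 stood at -0.17 and 0.55.

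Offspring of PM2.5-exposed dams had higher ratios in most broad regions. The median over regions was -0.22, -0.47 and -0.48 on the PM2.5 arrays, each above each control array, with group means of -0.39 ± 0.149 and -0.71 ± 0.0807 (SD, n = 3 each). PM2.5 replicate 1 was the highest, and without it the PM2.5 mean was -0.47. The mean was higher in PM2.5 in 117 of the 122 regions, with a median change of 0.28 on the log2 scale and a range from -0.08 to 0.67. Over all 14786 tested regions of the array 83.6% were higher, with a median change of 0.24, so much of the shift was common to the whole array under this centring. When every array was centred on one common set of probes, those used on all 6, the median change was 0.09 in broad regions, of which 72.1% were higher, and 0.05 over all regions. In the authors' deposited table it was 0.06 and 0.03.

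**Figure D1:**
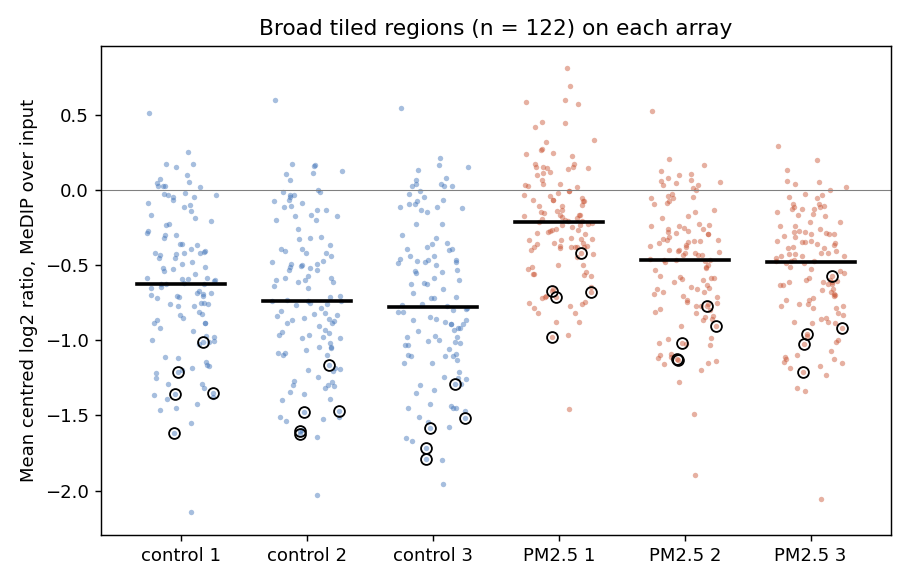
Mean centred log2 ratio of MeDIP over input in each of the 122 broad regions (points) on the 3 control and 3 PM2.5 arrays, with the median over regions as a black line and the 5 regions past an adjusted p of 0.05 ringed. The medians run from -0.78 to -0.62 in controls and from -0.48 to -0.22 in PM2.5.

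Few single regions passed the test. All 122 were tested within a limma fit of the 14786 regions of the array, with Benjamini-Hochberg adjustment over all of them. At an adjusted p under 0.05, 5 of the 122 (4.1%) rose in PM2.5, against 9.79% of all regions, and 0 of the 122 fell, against 0.0473%. At an unadjusted limma p under 0.05 there were 52 higher (42.6%, against 32.5% of all regions) and 0 lower (against 0.622%). All PM2.5 arrays lay above all control arrays in 80 broad regions (65.6%, against 37.9% of all regions), and below them in 0 (against 1.9%). Broad regions average more used probes than the median of 4 in autosomal regions of 6 to 20 probes. When at least 5 used probes were required of every region, 24 of 120 broad regions (20%) rose, against 20.3% of the 5508 regions then tested, with changes from 0.40 to 0.67. The share of broad regions called is thus near the background when regions of few probes are set aside. Calls at this threshold were lost when either control 2 or control 3 was left out, while the changes of the 5 regions stayed about as large. Without control replicate 2, 0 of the 122 passed in limma and the 5 had changes of 0.49 to 0.70. Without control replicate 3, 0 passed and the changes were 0.44 to 0.61. Higher at an unadjusted p under 0.05 in limma were then 19 broad regions (15.6%, against 20.2% of all regions) and 14 (11.5%, against 18.2%). Controls 2 and 3 had the same scanning time and were taken to share a slide. With the slide as a random block 0 passed (34 at an unadjusted p under 0.05, 27.9% against 25% of all regions), with changes of 0.49 to 0.66 in the 5. With the common centring 0 passed (19 at an unadjusted p under 0.05, 15.6% against 18.1%), as in the authors' deposited table (4, 3.28% against 7.18%).

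**Figure D2:**
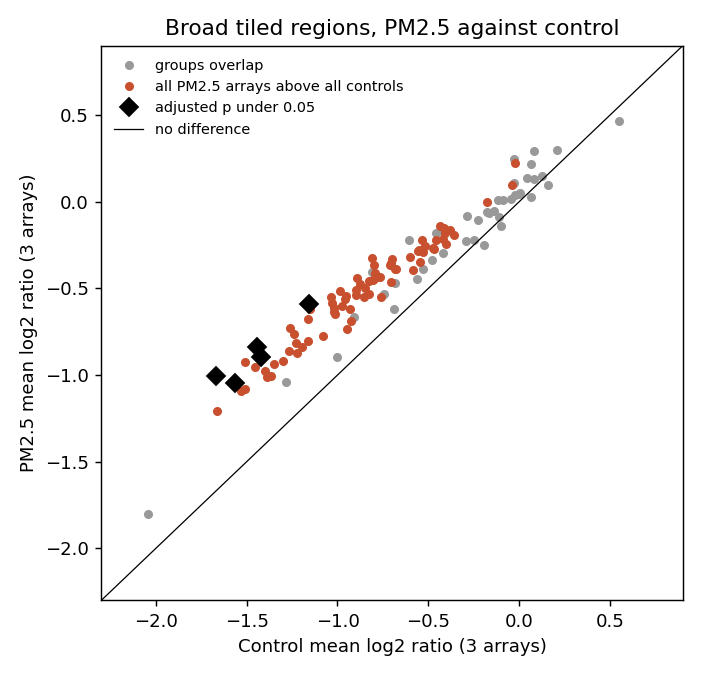
Mean log2 ratio in PM2.5 (vertical axis) against control (horizontal axis) for the 122 broad regions, each the mean of 3 arrays, with the line of no difference. The 117 regions above the line lie farthest from it at the low end, and the 5 called regions (diamonds) have control ratios between -1.67 and -1.16. The control values also set the distance from the line.

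The 5 regions that rose all had low control ratios, a description only, since the control values are part of the change. The largest change was on chromosome 5 from 53471988 to 53478710, where control arrays read -1.62, -1.60 and -1.79 and PM2.5 arrays -0.67, -1.12 and -1.21. The groups did not overlap, PM2.5 replicate 1 was the highest array, and PM2.5 was 0.67 higher (standard error 0.164, limma adjusted p = 0.0361). Next came chromosome 1 from 56476526 to 56482887, with control arrays at -1.35, -1.47 and -1.52 and PM2.5 arrays at -0.68, -0.91 and -0.92. PM2.5 was 0.61 higher there (standard error 0.137, limma adjusted p = 0.031), and here too replicate 1 was the highest of the PM2.5 arrays. The region on chromosome 7 from 105838514 to 105848131 read -1.01, -1.17 and -1.29 on control arrays against -0.42, -0.77 and -0.57 on PM2.5 arrays, a rise of 0.57 (standard error 0.147, limma adjusted p = 0.0399). Chromosome 9 from 22114476 to 22122757 read -1.21, -1.48 and -1.58 on control arrays against -0.71, -1.02 and -0.96 on PM2.5 arrays, a rise of 0.53 (standard error 0.152, limma adjusted p = 0.0498). The widest of the 5, 12535 bp on chromosome 1 from 116066933 to 116079467, had -1.36, -1.62 and -1.72 on control arrays against -0.98, -1.14 and -1.02 on PM2.5 arrays, a rise of 0.52 (standard error 0.143, limma adjusted p = 0.0461). In each of the last 3 regions the lowest PM2.5 array lay above the highest control array. No gene is named for any region, since an annotation of rn4 was not used here.

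Part of the signal in these 5 regions was near background. Of their used probes, 5 of 11 on chromosome 5, 3 of 14 in the first region named on chromosome 1, 3 of 17 on chromosome 7, 4 of 11 on chromosome 9 and 8 of 27 in the region from 116066933 had Cy5 well above background on no array. A change at such probes cannot be read as a change in captured DNA, so the sizes above rest partly on it. In the same order of regions, Cy5 was well above background on all 6 arrays at only 5 of 11, 7 of 14, 6 of 17, 4 of 11 and 7 of 27 used probes. Over probes well above background in both channels on all 6 arrays, 0 of the 5 passed (limma adjusted p from 0.117 to 0.978), their changes ranged from -0.01 to 0.44, and the lowest was that of the region from 116066933, which then rested on 7 probes. The changes were 0.33 to 0.48 with the common centring and 0.13 to 0.23 in the authors' deposited table.

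Along the 5 regions the rise was not even. On chromosome 5 all 11 used probes had a higher mean in PM2.5, and 6 of them had all PM2.5 arrays above all controls. The counts were 11 and 9 of 14 probes in the first region named on chromosome 1, 16 and 7 of 17 on chromosome 7, 10 and 5 of 11 on chromosome 9, and 23 and 10 of 27 in the region from 116066933. These probes make up the region means by which the 5 regions were called, so the counts are a description and no further support. No share over all probes is given beside them. Single probes within one region ranged from -5.34 to 0.72 in controls on chromosome 1 from 56476526, and from -3.58 to 1.05 in the region from 116066933. Over the 5 regions, the 47 used probes with a control ratio below -1 had a median change of 0.84 and the other 33 one of 0.20, a description only, since the control values are part of the change.

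**Figure D3:**
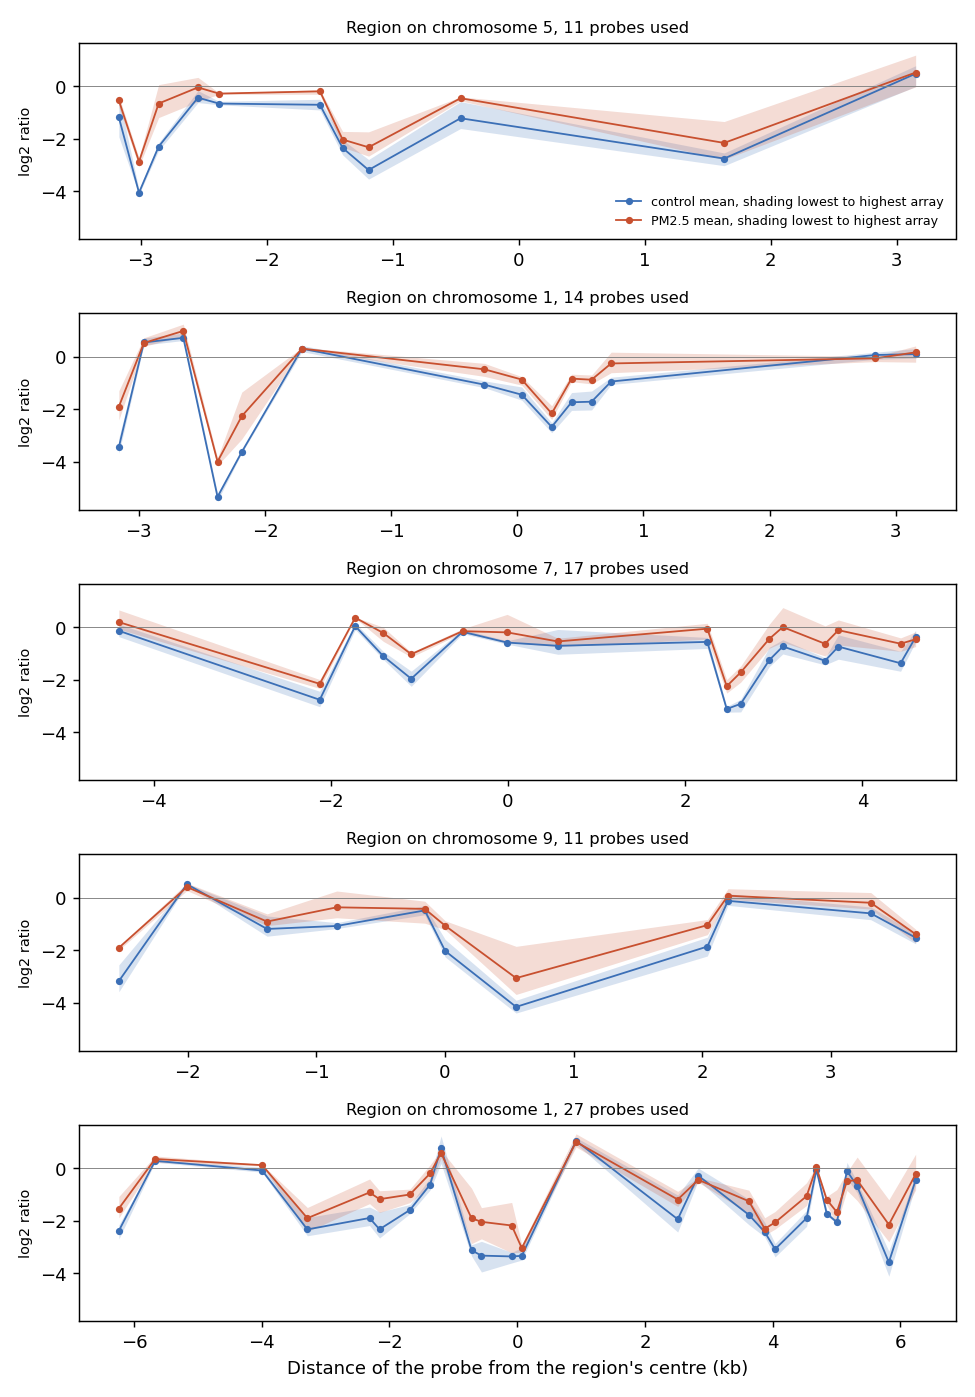
Log2 ratio of each used probe against its distance from the region's centre in kb, for the 5 called regions, with group means as points and lines and the lowest to highest array as shading (3 control arrays in blue, 3 PM2.5 arrays in red). The curves follow each other in shape and part mainly where the ratio is low.

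A further 5 rises filled the naming list without passing the test. They lay on chromosome 14 from 109662718 to 109673561 (change 0.48), chromosome 1 from 116081589 to 116096510 (0.50), chromosome 19 from 39433031 to 39436630 (0.53), chromosome 18 from 2189217 to 2197068 (0.49) and chromosome 7 from 71225323 to 71229845 (0.41), with limma adjusted p from 0.0527 to 0.0588. The groups did not overlap in any of these 5. The 5 broad regions with a lower mean in PM2.5 had changes from -0.08 to -0.04, limma adjusted p from 0.697 to 0.857 and overlapping groups. They lay on chromosome 10 from 62496873 to 62501214 and from 87545603 to 87549358, on chromosome 1 from 201407974 to 201411659 and from 95546183 to 95553483, and on chromosome 7 from 114226736 to 114233352. Their control ratios lay between -0.19 and 0.55, in the upper part of the range. That is a description only, since the control values are part of the change by which these 5 were picked.

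The change was larger where the ratio was low and the probes were long. In the 41 regions of lowest mean ratio over all 6 arrays the median change was 0.41, and 37 of them had groups that did not overlap. It was 0.30 in the middle 40 regions and 0.12 in the highest 41, where 11 did not overlap. In the 41 regions with a mean probe length of 52 nt or more the control median was -1.05 ± 0.101 and the PM2.5 median -0.65 ± 0.198 (SD over 3 arrays each). In the 36 regions under 48 nt the values were -0.18 ± 0.00748 and -0.13 ± 0.122. The median changes were 0.39 and 0.12, and 4 and 0 of these regions were called. Over all tested regions, of any ratio and probe length, the groups did not overlap with PM2.5 higher in 37.9%, and 9.79% were called higher. Shares over regions of like ratio or probe length were not computed, so these counts show no trait particular to broad regions. Probe length and ratio go together, and their parts in the change were not tested. With each probe length centred by itself, the median change was 0.08 both over broad regions and over all regions. In limma 0 of the 122 then passed, against 0% of all regions. At an unadjusted limma p under 0.05, 7 were higher (5.74%, against 14% of all regions). Pieces of stretches over 40 kb had a median change of 0.30, and regions in stretches under 5 kb one of 0.25, with median control ratios of -0.80 ± 0.0974 and -0.40 ± 0.0448.

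The regions were more alike in PM2.5 hearts. The standard deviation over the 122 regions was 0.48, 0.51 and 0.53 on the control arrays and 0.39, 0.41 and 0.39 on the PM2.5 arrays, so the groups did not overlap. Over regions of 6 to 20 probes the values were 0.79 ± 0.048 and 0.63 ± 0.015 (SD, n = 3 each). Over regions of more than 100 probes they were 0.40 ± 0.028 and 0.29 ± 0.005, so the smaller spread was not particular to broad regions. Within single broad regions, the median standard deviation over probes was 1.14, 1.22 and 1.28 on control arrays against 1.03, 0.95 and 0.92 on PM2.5 arrays. Of the 122 regions, 116 varied less along their length in PM2.5, a count without a share over all regions beside it. Used probes under -1 made up 34.8% ± 2.9 of the values in controls and 25.5% ± 2.7 in PM2.5, and all PM2.5 arrays lay below all controls. Probes above 1 made up 2.30%, 3.47% and 3.77% on control arrays against 9.98%, 1.13% and 1.13% on PM2.5 arrays. PM2.5 replicate 1 stands apart here, and of the broad regions' spots 29.7% were marked on that array against 0.297% to 1.86% on the other arrays. The difference in standard deviation over regions was -0.12, and -0.03 in the authors' deposited table, -0.05 with normexp background correction and -0.05 with scale normalisation, which evens out the spread of the arrays by construction.

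Within broad regions the ratio formed a landscape that both groups shared. The used probes in the central 50% of each region's extent were set against those to both sides of it, which cancels the centre of the array, in the 111 regions with at least 3 used probes in each part. The middle was the lower in 62 regions and the higher in 49 in controls, and the difference passed 0.5 in size in 57 of them. The sign was the same in PM2.5 in 58 of the 62 and in 42 of the 49. The control and PM2.5 differences correlated at 0.96 (Pearson and Spearman) over the 111 regions. The deepest central trough was on chromosome 1 from 56437030 to 56441932, where the middle had a ratio of -2.85 ± 0.137 and the outer parts -0.46 ± 0.0255 in controls (SD, n = 3). The middle minus outer difference there was -2.25, -2.46 and -2.45 on control arrays against -1.42, -1.91 and -1.92 on PM2.5 arrays, with no overlap between groups. On chromosome 4 from 6092845 to 6097131 the middle was at -1.40 ± 0.13 and the flanks at 0.78 ± 0.0497 in controls. There the difference was -2.04, -2.23 and -2.25 on control arrays against -1.87, -1.17 and -1.37 on PM2.5 arrays, again with no overlap. Troughs also stood in the middle on chromosome 1 from 73138686 to 73142965 (-1.81 ± 0.0719 in controls) and from 136158108 to 136161855 (-1.45 ± 0.00397). The opposite shape was largest on chromosome 9 from 19387613 to 19391898, where the middle lay 1.43 ± 0.242 above the flanks in controls. Cy5 was well above background on all 6 arrays at 1 of 5 middle probes from 56437030 and 1 of 3 on chromosome 4. The counts were 1 of 4 from 73138686 and 3 of 6 from 136158108, and 2 of 4 flank probes on chromosome 9. These depths and their changes therefore rest partly on signal near background. Probe length moved with shape in most regions but not in all. Middle probes were on average the longer in 46 of the 62 regions with a lower middle and the shorter in 36 of the 49 with a higher one. Among the troughs named, middle and outer probes measured 54.2 and 50.57 nt on chromosome 1 from 56437030 but 49.25 and 49.67 nt on chromosome 1 from 73138686. The part of probe length in the shapes was not tested.

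**Figure D4:**
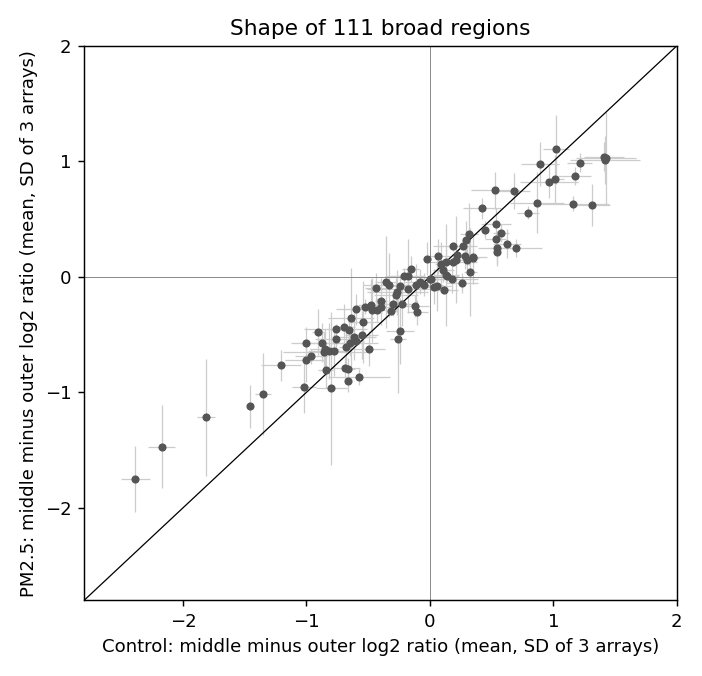
Middle minus outer log2 ratio of 111 broad regions in PM2.5 (vertical axis) against control (horizontal axis), each point the mean of 3 arrays with its SD as bars, and the line of equal values. The points follow the line at small differences, and the 4 deepest troughs, at -1.45 or below in controls, lie above it. These troughs were picked by their control values, which also set their distance from the line.

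No change of shape passed the test. In limma, the middle minus outer difference rose in 0 and fell in 0 of the 111 regions at an adjusted p under 0.05, as in 0% of the 1645 regions tested. At an unadjusted p under 0.05 it was higher in 8 and lower in 7 broad regions (7.21% and 6.31%), against 10.9% and 12.9% of all regions tested. Groups did not overlap in 18 regions with a higher and 18 with a lower difference in PM2.5 (16.2% each, against 13.7% and 15.1%). The smallest p belonged to chromosome 1 from 202912726 to 202917967, named after its values were seen, where the middle lay above the flanks by 1.35, 1.15 and 1.44 on control arrays against 0.42, 0.68 and 0.77 on PM2.5 arrays. That difference was smaller in PM2.5, by -0.69 as PM2.5 less control (standard error 0.152, limma adjusted p = 0.0677), and the groups did not overlap. On chromosome 1 from 56437030 the difference was 0.64 nearer to 0 in PM2.5 (standard error 0.171, limma adjusted p = 0.0965), and on chromosome 4 from 6092845 it was 0.70 nearer (standard error 0.192, limma adjusted p = 0.103). Both regions were named for their large control differences, which are part of these changes. The median absolute difference was 0.49 ± 0.0375 in controls and 0.37 ± 0.0354 in PM2.5, with no overlap between groups, and it was smaller in PM2.5 in 83 of the 111 regions. No share over all regions is given for this last count.

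To compare broad regions with the rest at an equal number of probes, every region was cut into consecutive windows of 5 used probes, which spanned a median of 1724 bp in broad regions. In limma, 97 of the 409 windows in broad regions rose (23.7%, against 21.9% of the 7282 windows on the array) and 0 fell (against 0.0137%). At an unadjusted limma p under 0.05, 180 were higher (44%, against 40.7%) and 0 lower (against 0.0824%), and the groups did not overlap in 208 higher (50.9%, against 45.3%) and 1 lower (0.244%, against 1.11%). The median change was 0.29 in broad regions and 0.27 over all windows. Windows of broad regions therefore changed about as often as windows in general. The 97 had medians of -1.35 (control) and -0.75 (PM2.5), with changes from 0.38 to 1.05. Of the 154 windows in broad regions with a control ratio below -1, 84 were called, and of the 55 with one above 0, 0 were called. These counts are a description only, since the control values are part of the change. At least 1 window was called in 54 of the 120 regions that held one, and 49 of these 54 did not pass as whole regions. All windows were called in 6 regions. Of the 95 regions with at least 2 windows, 33 held changes of both signs. These counts of regions depend on how many windows a region holds, and no share over all regions is given beside them. The window of largest change, chosen after its values were seen, was on chromosome 1 from 116088052 to 116090170, with control arrays at -3.33, -3.44 and -3.48 and PM2.5 arrays at -2.08, -2.46 and -2.56. PM2.5 was 1.05 higher (standard error 0.149, limma adjusted p = 0.0114), inside a region that did not pass as a whole. Of the 27 used probes of that region, 11 had Cy5 well above background on all arrays and 5 on none. Low windows such as this one can therefore rest partly on signal near background. Fewer windows passed when both channels had to be above background. Without control replicate 3, 0 windows passed (104 higher at an unadjusted limma p under 0.05), without control replicate 2 there were 4, with the slide as a random block 35, and with the common centring 47 were higher and 4 lower.

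**Figure D5:**
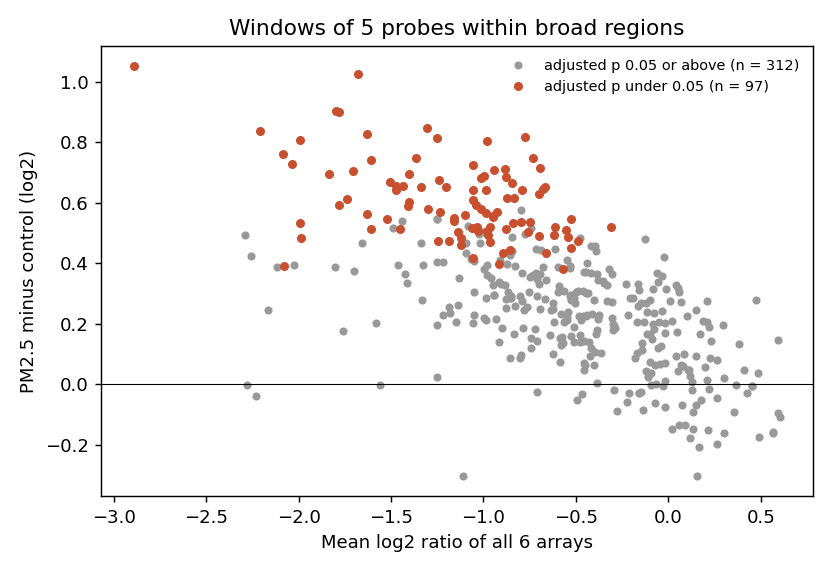
PM2.5 minus control change (vertical axis, log2) of 409 windows of 5 used probes in broad regions against their mean log2 ratio over all 6 arrays (horizontal axis). The 97 called windows (red) lie at changes of 0.38 or more and at low ratios.

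Of single probes in broad regions, 69 of 3936 tested rose (1.75%, against 1.33% of the 133485 probes tested on the array) and 0 fell (against 0.00524%) at a limma adjusted p under 0.05. At an unadjusted p under 0.05, limma had 688 higher (17.5%, against 14.7%) and 94 lower (2.39%, against 3.21%). The 69 were spread over 52 regions, with at most 4 in one region. Neighbouring used probes correlated at 0.122 to 0.175 within broad regions on the 6 arrays, against 0.174 to 0.245 over all regions.

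The file headers give the time of scanning, from which the scanning day was read. Arrays with the same scanning time were taken to share a slide. Only the days hold arrays of both groups. On the day with 1 control and 1 PM2.5 array, 91 of the 122 broad regions were higher in PM2.5, with a median change of 0.10 against 0.06 over all regions. Controls 2 and 3 shared a day with 1 PM2.5 array, and there 106 were higher, with 0.23 against 0.19. The remaining PM2.5 array, replicate 1, had a day of its own, which gives no value within the day.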

How the data were processed

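Per the file headers, the deposited spot intensities are Feature Extraction 11.0.1.1 output, with processed signals background-subtracted, spatially detrended and dye-normalised; the build is rn4. Log10 ratios in the same deposited files were not used. The authors' deposited table of log2 values served as an alternative; its smoothing and scale are unknown. Tests used log2 of Cy5 over Cy3 processed intensity, each array centred on the median of its own unmarked kept probes. Of 172669 probes, 70843 were used. Regions with at least 2 used probes, windows of 5, middle minus outer differences (at least 3 probes in each part) and single probes were fitted with lmFit and eBayes of limma 3.58.1 in R 4.3.3 over the whole array, as PM2.5 less control, calling a Benjamini-Hochberg adjusted p under 0.05. Scripts were tested on simulated data. The number of arrays limits the precision. Named were the 10 largest rises and falls past the threshold without overlap, filled by smallest p; the 5 lowest and 5 highest control means; the 5 largest middle minus outer differences; and the widest, the narrowest and the one with most probes, each with at least 5 used probes. Members and lists were chosen with earlier results of these data known. No sequence of these regions was at hand for rn4, so none is shown. Alternatives covered background correction (normexp, offset 50), centring, filters, scaling, blocks, variance models and each array left out. Figures used matplotlib 3.10.9.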

Additional observations from a re-analysis of the deposited data

How the results depend on the processing

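The number of arrays and Cy5 signals near background limit these results, and causes of the following changes were not tested beyond what each calculation itself changes. Against 5 broad regions, 97 windows and 69 probes higher in limma, all 3 counts were 0 in the authors' values, with normexp, with scale normalisation and with each probe length centred. With quantile normalisation 0 regions and 0 windows passed. With both channels above background they were 0, 16 and 0, with the common centring 0, 47 and 31 (4 windows lower), and without the input filter 0 regions and 0 probes passed. The slide as a random block gave 0 regions and 35 windows, and trend and robust estimation 0 regions. Where 0 broad regions passed, 0% to 2.16% of all regions were called higher. Region medians gave 2 regions (1.64%, against 5.01% of all regions). Marked spots kept gave 13 regions (10.7%, against 7.25%) and 2 windows lower. At least 5 used probes gave 24 regions (20%, against 20.3%). The scanning day as a block gave 14 regions (11.5%, against 17.2%) and 235 probes. With it 2 windows and 11 probes were lower and 1 middle minus outer difference was higher. Regions higher at an unadjusted limma p under 0.05 numbered 4 in the authors' values (3.28%, against 7.18%) and 19 with normexp (15.6%, against 20.2%). They numbered 3 with scale or quantile normalisation (2.46%, against 7.89% and 7.82%) and 7 with length centring (5.74%, against 14%). Leaving out 1 array gave 0 to 6 regions (0% to 4.92%, against 0% to 11.4%), 0 to 109 windows (0 to 2 lower) and 0 to 126 probes (0 to 3 lower). The replicate block gave 20 regions (16.4%, against 19%), 156 windows and 211 probes. Arrays of one number did not deviate together (correlations of -0.00814, 0.113 and -0.149), so the numbers are not read as pairs. Shares over all windows and probes were not computed for these alternatives.

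The median over broad regions, 0.325 higher in PM2.5, differed by 0.048 in the authors' values, 0.13 with both channels above background, 0.138 with the common centring, 0.147 with marked spots kept, 0.169 with normexp, 0.171 with quantile normalisation and 0.094 with length centring. The difference in standard deviation over regions, -0.116, was -0.028, -0.061, -0.053, -0.05, -0.036 and -0.047 in the authors' values, with both channels above background, normexp, length centring, quantile and scale normalisation, and that within regions, -0.247, was -0.027, -0.107, -0.107, -0.044 and -0.092 in the authors' values, with both channels above background, normexp, quantile and scale normalisation. The sign turned for the region on chromosome 1 from 116066933 with both channels above background (-0.008), and for uncalled falls near 0: on chromosome 1 from 201407974 (0.002) and 95546183 (0.022) and chromosome 7 from 114226736 (0.076) with region medians, on chromosome 10 from 62496873 (0.005) and chromosome 7 from 114226736 (0) without PM2.5 replicate 3, and on chromosome 10 from 87545603 without the input filter (0.065) or control replicate 2 (0.021). With 1 array left out, the last 3 reached -0.14 (from 62496873), -0.075 (from 114226736) and -0.123 (from 87545603).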
